A study of Mus musculus with 12 samples.

Results

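Bone morphogenetic protein (BMP) signalling genes and the Id genes were followed in NIH-3T3 cells, a mouse fibroblast line derived from embryos and able to grow without limit, after exposure to TGF-β1, stanniocalcin-1 (STC-1) or both. The 10 genes were listed by name, with earlier results of these data known. They were the ligand Bmp4, the receptors Bmpr1a and Bmpr2, and the signal transducers Smad1 and Smad5. The others were the inhibitory Smad6, the nuclear targets Id1, Id2 and Id3, and the secreted antagonist Grem1. All 10 had an entry among the 16300 genes of the table, and 8 reached a mean of 10 counts over the 12 libraries. Those 8 also passed the filter on low counts that left 11763 genes for testing. There were 4 groups of 3 libraries: TS (STC-1 at 100 ng/mL with TGF-β1 at 10 ng/mL), TGFb1 (TGF-β1 at 10 ng/mL), STC1 (STC-1 at 100 ng/mL) and Con (PBS), each treated for 24 h. The series text calls the libraries of a group biological replicates. All come from 1 cell line, and nothing in the labels says whether the cultures were grown or handled on separate days.

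BMPs are secreted dimers of the TGF-β family. They bind type I receptors such as BMPR1A and type II receptors such as BMPR2; the active complex phosphorylates SMAD1 and SMAD5, which enter the nucleus with SMAD4. In fibroblasts and mesenchymal cells the Id genes are among the best known direct targets of this branch. Id proteins are helix-loop-helix factors without a DNA-binding region, and they act by sequestering E proteins. TGF-β1 itself signals mainly through SMAD2 and SMAD3, and in textbook accounts it can alter Id gene expression in its own right.

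The promoters of the 2 listed genes that fell with TGF-β1, Bmpr2 and Id2, are shown beside that of Id3, a close relative of Id2 that was not called in any comparison. Of the 10 listed genes 9 had a promoter entry in the RefSeq table of build GRCm38.p6, and Id1 had none. Each sequence is the 250 bases before the annotated start, 5′ to 3′ on the strand of the gene. Capitals mark GGCGCC, a GC-rich element that SMAD1 and SMAD5 complexes are known to bind, and CAGAC or its reverse complement GTCTG, a SMAD-binding word. Both strands were searched, GGCGCC is its own reverse complement, and the marked words do not overlap.
Bmpr2, chr1:59764029-59764278, plus strand: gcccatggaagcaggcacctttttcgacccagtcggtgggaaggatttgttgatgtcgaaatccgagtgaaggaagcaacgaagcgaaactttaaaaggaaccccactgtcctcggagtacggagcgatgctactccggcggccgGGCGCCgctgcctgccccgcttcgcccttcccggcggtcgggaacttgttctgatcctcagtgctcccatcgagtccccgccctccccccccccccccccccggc
Id2, chr12:25096093-25096342, minus strand: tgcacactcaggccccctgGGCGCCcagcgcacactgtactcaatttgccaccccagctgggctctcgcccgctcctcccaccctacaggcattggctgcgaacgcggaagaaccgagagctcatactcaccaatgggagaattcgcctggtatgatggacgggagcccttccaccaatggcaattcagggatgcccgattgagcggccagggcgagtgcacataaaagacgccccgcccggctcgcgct
Id3, chr4:136143572-136143821, plus strand: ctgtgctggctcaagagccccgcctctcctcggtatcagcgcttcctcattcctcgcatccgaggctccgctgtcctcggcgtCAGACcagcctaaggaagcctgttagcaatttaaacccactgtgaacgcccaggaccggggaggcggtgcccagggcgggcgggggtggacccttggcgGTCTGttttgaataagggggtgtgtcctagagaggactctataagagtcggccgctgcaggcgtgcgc
GGCGCC began 105 bases before the start of Bmpr2 and 231 bases before that of Id2. It also stood before listed genes that were not called, 198 bases before Bmpr1a, 19 before 1 of the starts of Smad5 and 78 before Grem1. CAGAC began 167 bases and GTCTG 68 bases before the start of Id3. CAGAC also began 21 bases before another start of Smad5 and 219 bases before that of Grem1. Among all 32851 promoter entries cut to the same 250 bases, 9.59% held GGCGCC and 42.2% held CAGAC or GTCTG. These matches describe letters in a window and are not evidence of binding.

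Libraries held between 16867600 and 18521800 expected counts. Fibroblast markers were high in all libraries, with a summed level between 17899.6 and 20565.7 CPM (counts scaled to a common library size with TMM), Fn1 being the highest at 5699 CPM on average. The summed level was 17899.6 to 19112.3 CPM in TS, 18048 to 18592.4 in TGFb1, 18547.8 to 19278.6 in STC1 and 19321.6 to 20565.7 in Con libraries. With TGF-β1 over 6 against 6 libraries 3 of the 9 markers fell and none rose. There 2.31% of all tested genes were called as lower and 4.7% in either direction. In TGFb1 against Con 5 of the 9 fell and none rose, where 2.08% of all tested genes were called as lower. In TS against Con 5 fell and 1, S100a4, rose, where 2.88% were called as lower and 3.18% as higher. The markers that fell over 6 against 6 libraries were Col1a2, Pdgfra and Fn1, joined by Col3a1 and Pdgfrb in both comparisons with Con. In TGFb1 against Con the log2 fold changes were -0.28 for Col3a1, -0.21 for Pdgfra, -0.16 for Pdgfrb, -0.15 for Col1a2 and -0.12 for Fn1. The part of this in the results was not tested. Endothelial, epithelial and myoblast markers summed to at most 0.679, 0.350 and 0.583 CPM in a library, and leukocyte markers to at most 5.26 CPM, mostly Cd68. None of the markers listed in the table was at 0 in every library. Of the lineages in which BMPs act, osteoblast markers summed to between 37.1 and 42.8 CPM, nearly all Runx2, and chondrocyte markers to between 34.8 and 40.6 CPM, nearly all Sox9. Adipocyte markers summed to between 31.96 and 35.9 CPM, mostly Lpl. In bulk RNA, fewer cells expressing a gene and less RNA per cell cannot be told apart.

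Bmp4 and Grem1 were close to absent. Bmp4, a BMP ligand, had 7 counts over all libraries, at most 2 in 1 library, and was at 0 in 7 of 12 libraries. Summed over 3 libraries it had 0 counts in TS, 1 in TGFb1, 2 in STC1 and 4 in Con. A limit of 3 counts for the 0 counts in TS corresponds to 0.0575 CPM, and the upper end of the exact 95% Poisson interval is 0.0708 CPM; both cover counting error only. Grem1, which encodes a BMP-binding antagonist, had 3 counts, at most 1 in a library, and was at 0 in 9 of 12 libraries. Neither was tested, and no fold change is given for them. Smad6 stood lowest among the 8 genes above the limit, with a mean of 62.75 counts, against 0.583 for Bmp4 as the nearest gene below it.

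Among the 8 measured genes the order of levels was compared per kilobase of the longest annotated transcript. In Con libraries Id3 was the highest at 47.2 ± 1.65 CPM per kb (SD, n = 3). Bmpr1a followed at 23.4 ± 0.536, Id1 at 14.1 ± 0.719, Smad5 at 12.3 ± 0.0813, Bmpr2 at 9.87 ± 0.259, Smad1 at 9.31 ± 0.371 and Id2 at 7.88 ± 0.342 CPM per kb. Smad6, the inhibitory SMAD, was the lowest at 1.36 ± 0.183 CPM per kb. The transcript used by these cells was not measured, and a shorter one would raise the value of its gene. The type I receptor gene Bmpr1a was thus above the type II receptor gene Bmpr2 on this scale, and Smad5 above its relative Smad1. The gaps between neighbours are wider than their SDs except between Bmpr2 and Smad1, where the difference is within the sum of the SDs.

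**Figure D1:**
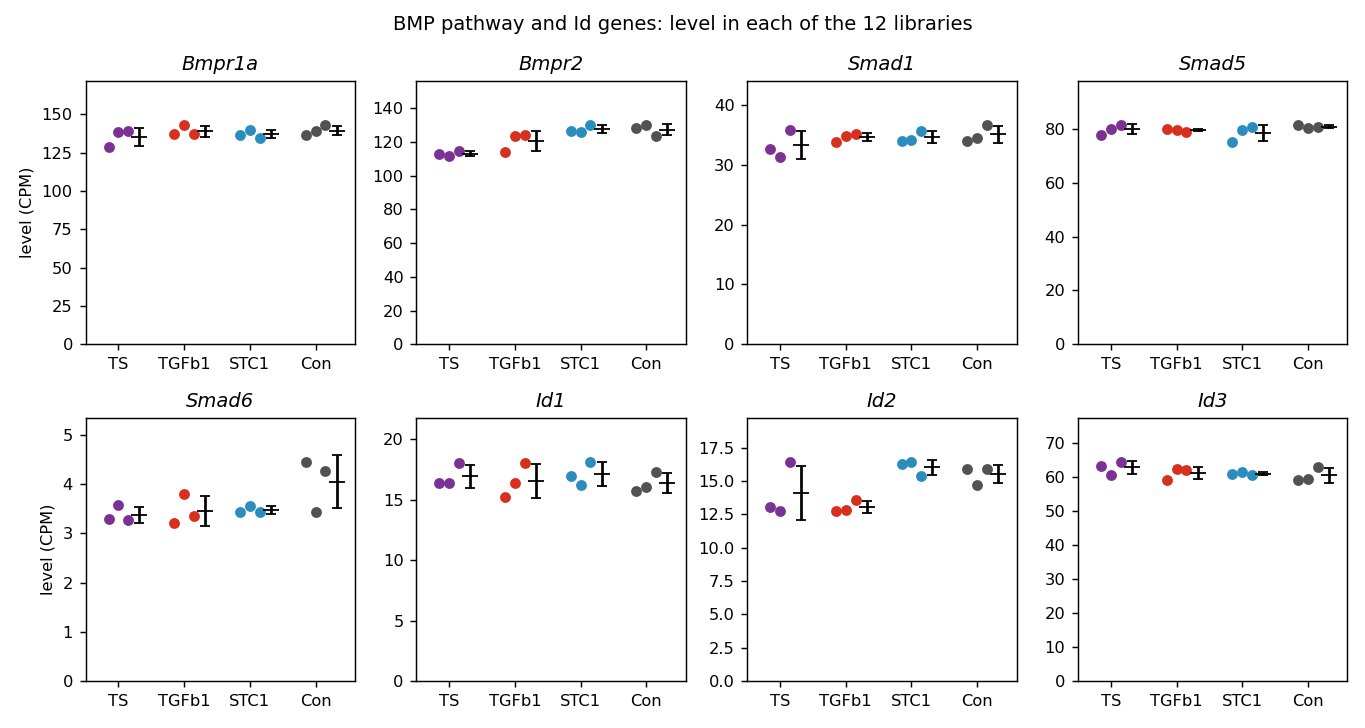
Levels in CPM (y axis, from 0) of the 8 measured genes in the TS, TGFb1, STC1 and Con groups (x axis). Each point is a library, and the black bar beside each group is the mean with the SD over 3 libraries. Bmpr2 and Id2 are lower in most libraries that received TGF-β1, while Id1, Id3, Bmpr1a and Smad5 lie at similar heights in all groups.

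Whether TGF-β1 altered these genes was asked with all 12 libraries, as the mean of the TGFb1 minus Con and TS minus STC1 differences (6 libraries with TGF-β1 against 6 without). By edgeR's quasi-likelihood test with Benjamini-Hochberg adjustment over all tested genes, Bmpr2 and Id2 fell and none of the 8 rose. Genes count as called when that adjusted p is below 0.05, and "fell" and "rose" are used of called genes only. Over all tested genes 2.31% were called as lower, 2.39% as higher and 4.7% in either direction. The median log2 fold change was -0.025 over the 8 genes and -0.00039 over all tested genes.

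Bmpr2 encodes the type II BMP receptor, whose inherited loss of function is known in human pulmonary arterial hypertension. Its level was 112.8, 111.7 and 114.8 CPM in TS libraries, 114.1, 123.5 and 124.4 CPM in TGFb1 libraries, 126.7, 125.9 and 130.2 CPM in STC1 libraries, and 128.3, 130.1 and 123.6 CPM in Con libraries. The 3 TS libraries and TGFb1 replicate 1 were the lowest, and the 6 libraries with TGF-β1 overlapped the 6 without only between 123.6 and 124.4 CPM. The fall with TGF-β1 was 8.37% (log2 fold change -0.13, SE 0.0240, adjusted p = 0.000483 by the edgeR test). It was called in each of the 18 alternative settings run for it, with adjusted p between 4.50e-05 and 0.00536.

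The order of the group means of Bmpr2 was STC1, Con, TGFb1 and TS from high to low, and each group overlapped its neighbour in that order. TS libraries did not overlap STC1 or Con libraries, which held for 14.5% and 21.9% of all tested genes. Against STC1, Bmpr2 fell in TS to 113.1 ± 1.57 CPM, against 127.6 ± 2.26 CPM (SD, n = 3; log2 fold change -0.17, SE 0.0340, edgeR adjusted p = 0.00451), as the only listed gene called. Over all tested genes 0.298% were called there in either direction, 0.128% as lower and 0.17% as higher. At an unadjusted p under 0.05 were Bmpr2 and Id2, against 9.17% of all tested genes. Against Con at 127.3 ± 3.34 CPM the fall in TS was of like size (-0.17, SE 0.0341, edgeR adjusted p = 0.000667), again the only listed gene called, where 6.06% of all tested genes were called, 2.88% as lower and 3.18% as higher. These comparisons share the TS libraries and are not independent of each other.

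TGF-β1 alone gave a smaller difference in Bmpr2. Its level was 120.7 ± 5.74 CPM in TGFb1, against 127.3 ± 3.34 CPM in Con libraries (SD, n = 3; log2 fold change -0.077, 95% interval -0.15 to -0.0095, edgeR adjusted p = 0.204). In TS against TGFb1 the difference was -0.094 (95% interval -0.16 to -0.025, edgeR adjusted p = 0.642). The interaction, (TS minus TGFb1) minus (STC1 minus Con), was -0.097 for Bmpr2 (95% interval -0.19 to -0.0013). Its unadjusted p was 0.0471 and its edgeR adjusted p 0.596, so it did not pass.

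The transcript of Bmpr2 is long, at 12.9 kb for the longest annotated form, and 0.776% of tested genes with a known length have a longer one. Longer transcripts were lower with TGF-β1 in general: the median log2 fold change was -0.031 over 647 genes above 8 kb and 0.026 over 2767 genes up to 2 kb. This was not particular to TGF-β1, since in STC1 against Con the same medians were -0.022 and 0.021. With a trend in length and GC content removed from each library, a setting chosen after seeing the data, Bmpr2 stood at -0.095 (SE 0.0224, edgeR adjusted p = 0.00536) with TGF-β1 and was still called. In TS against Con it was at -0.12 and called (edgeR adjusted p = 0.0162), and in TS against STC1 at -0.12 and no longer called (edgeR adjusted p = 0.0672). TS against STC1 also lost its call without STC1 replicate 3 (log2 fold change -0.16, edgeR adjusted p = 0.072) and without TS replicate 1 (-0.17, edgeR adjusted p = 0.0627).

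Id2, a BMP target gene whose protein sequesters E proteins, was 13.1, 12.7 and 16.4 CPM in TS libraries, 12.7, 12.8 and 13.6 CPM in TGFb1 libraries, 16.3, 16.5 and 15.4 CPM in STC1 libraries, and 15.9, 14.7 and 15.9 CPM in Con libraries. Of the 6 libraries with TGF-β1, 5 lay below all 6 without it, and TS replicate 3 lay among the libraries without it. The fall with TGF-β1 was 14.2% (log2 fold change -0.22, SE 0.0574, edgeR adjusted p = 0.0131). Without TS replicate 3 the log2 fold change was -0.28 (edgeR adjusted p = 0.00118). The call was lost without TS replicate 1 (-0.20, edgeR adjusted p = 0.0575) and without TS replicate 2 (-0.19, edgeR adjusted p = 0.0517), the libraries in which Id2 was low. DESeq2 gave an estimate of -0.22 with an unadjusted p of 0.00355 and no adjusted p for Id2.

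In pairs of groups Id2 was not called. It averaged 13.04 ± 0.468 CPM in TGFb1 and 15.5 ± 0.673 CPM in Con libraries (SD, n = 3; log2 fold change -0.25, SE 0.0823, edgeR adjusted p = 0.0655), and these groups did not overlap, as for 21.3% of all tested genes. Smad5 also did not overlap there, at 79.6 ± 0.453 CPM in TGFb1 and 80.9 ± 0.535 CPM in Con libraries (SD, n = 3; -0.023, edgeR adjusted p = 0.823). In this comparison 0 of the 8 genes were called, against 3.99% of all tested genes (2.08% lower, 1.9% higher). At an unadjusted p under 0.05 there were 2, Id2 and Bmpr2, against 17.7% of all tested genes, and DESeq2 called 0 of the 4 for which it gave an adjusted p. Id2 was called there without TS replicate 3, which enters through the shared spread and filter (edgeR adjusted p = 0.0422), and with the length and GC trend removed (-0.28, edgeR adjusted p = 0.0371). In TS libraries Id2 averaged 14.1 ± 2.02 CPM, against 16.04 ± 0.574 CPM in STC1 libraries (SD, n = 3; -0.19, edgeR adjusted p = 0.425) and 15.5 ± 0.673 CPM in Con libraries (-0.14, edgeR adjusted p = 0.334). The order of means was STC1, Con, TS and TGFb1 from high to low, and each group overlapped its neighbour.

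Id1 and Id3, which encode the other widely expressed Id proteins, gave no call. Id1 was 16.4, 16.4 and 18.1 CPM in TS libraries, 15.2, 16.4 and 18.04 CPM in TGFb1 libraries, 16.97, 16.2 and 18.2 CPM in STC1 libraries, and 15.7, 16.02 and 17.3 CPM in Con libraries. All 4 groups overlapped. The difference of the 6 libraries with TGF-β1 from the 6 without was 0.00011 in log2 units, with a 95% interval of -0.11 to 0.11. Id3 had a median of 62.1 CPM with TGF-β1 (59.1 to 64.4) and of 60.7 CPM without (59.1 to 62.8), a log2 fold change of 0.030 with a 95% interval of -0.028 to 0.088 (edgeR adjusted p = 0.645). The 95% interval of Id2 with TGF-β1 was -0.34 to -0.11. Whether Id2 differs in its response from Id1 or Id3 was not tested.

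**Figure D2:**
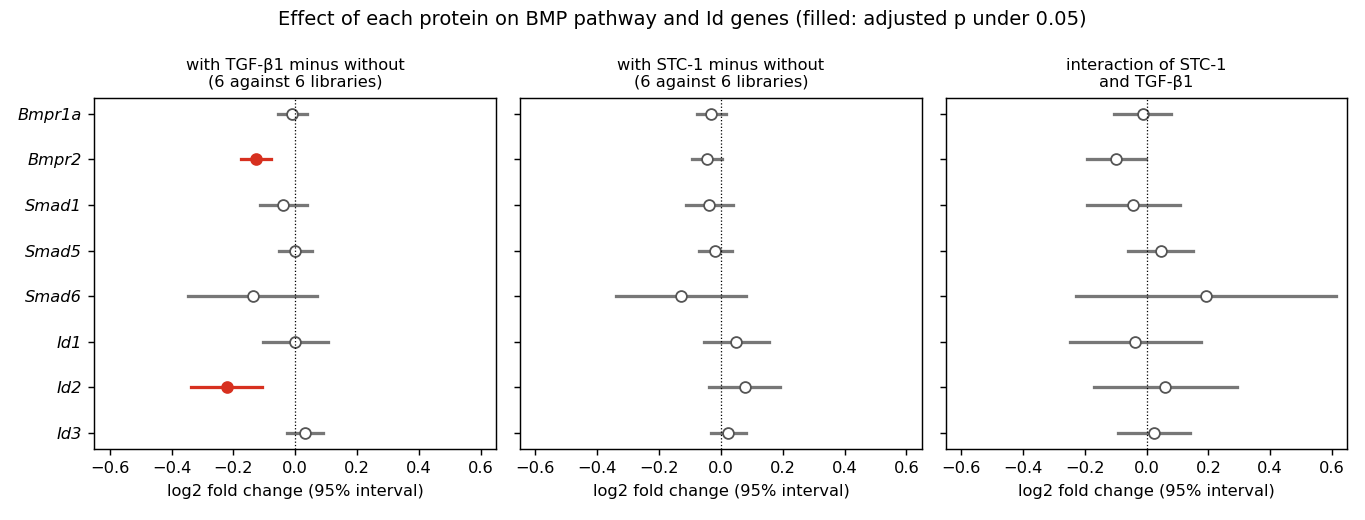
Log2 fold change (x axis) with its 95% interval for the 8 measured genes (rows) for TGF-β1 (6 libraries with it minus 6 without), for STC-1 (6 with it minus 6 without) and for their interaction. Filled red points passed an adjusted p of 0.05 by the edgeR test, namely Bmpr2 and Id2 in the first panel, and Smad6 has the widest intervals.

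The remaining receptor and SMAD genes gave no call in any comparison by the edgeR test. Bmpr1a, the gene of a type I BMP receptor, had a median of 137.8 CPM with TGF-β1 (128.7 to 143.1) and of 137.8 CPM without (134.7 to 142.8), a log2 fold change of -0.010 (95% interval -0.057 to 0.036, edgeR adjusted p = 0.88). Smad5 was at 79.9 CPM with TGF-β1 (median; 78.0 to 81.6) and 80.6 CPM without (75.1 to 81.5), a log2 fold change of 0.00032 (95% interval -0.052 to 0.053, edgeR adjusted p = 0.998). Smad1 was at 34.4 CPM in both sets of 6 libraries (median; 31.4 to 35.9 with TGF-β1 and 34.05 to 36.7 without), a log2 fold change of -0.039 (95% interval -0.11 to 0.037). Its 2 lowest libraries were TS replicates 1 and 2.

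Smad6, a feedback inhibitor of BMP signalling and itself a known target of it, was measured with the least precision. It was 3.29, 3.57 and 3.27 CPM in TS libraries, 3.21, 3.80 and 3.35 CPM in TGFb1 libraries, 3.44, 3.56 and 3.43 CPM in STC1 libraries, and 4.46, 3.44 and 4.27 CPM in Con libraries. Con replicates 1 and 3 were the highest of the 12, and Con replicate 2 lay among the treated libraries. The log2 fold changes against Con were -0.27 in TS (95% interval -0.56 to 0.024), -0.23 in TGFb1 (-0.53 to 0.057) and -0.23 in STC1 (-0.51 to 0.063), with edgeR adjusted p of 0.316, 0.416 and 0.609. These 3 values share the Con libraries.

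STC-1 was asked about in the same way. Over the 6 libraries with STC-1 against the 6 without, the edgeR test called 0 of the 8 genes and 0.085% of all tested genes (0.0765% higher, 0.0085% lower). At an unadjusted p under 0.05 there were 0 of the 8, against 8.33% of all tested genes, and DESeq2 gave no adjusted p for any of the 8. The log2 fold changes ran from -0.13 for Smad6 (95% interval -0.34 to 0.081) to 0.077 for Id2 (95% interval -0.038 to 0.19). Bmpr2 stood at -0.045 (95% interval -0.093 to 0.0027, edgeR adjusted p = 0.644).

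In STC1 against Con libraries the edgeR test likewise called 0 of 8, against 0.051% of all tested genes, with 0 of 8 at an unadjusted p under 0.05, against 10.6% of all tested genes, and no adjusted p from DESeq2 for any of the 8. Bmpr2 averaged 127.6 ± 2.26 CPM in STC1 and 127.3 ± 3.34 CPM in Con libraries (SD, n = 3; log2 fold change 0.0034, 95% interval -0.064 to 0.070), and Id2 differed by 0.046 (95% interval -0.11 to 0.20). In TS against TGFb1 libraries 0 of 8 were called, as was 0% of all tested genes. There Bmpr2 alone was at an unadjusted p under 0.05, against 6.5% of all tested genes, and DESeq2 called 0 of the 8. For the interaction 0 of 8 were called and 0% of all tested genes, Bmpr2 alone had an unadjusted p under 0.05, against 8.29% of all tested genes, and DESeq2 called 0 of the 8.

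The wider pathway was read from 78 other genes named for their roles, of which 61 were in the table and 47 were tested. With TGF-β1 (6 libraries against 6) 3 of the 47 fell and none rose, where 2.31% of all tested genes were called as lower and 2.39% as higher, and the median of the 47 log2 fold changes was -0.042, against -0.00039 over all tested genes. Those that fell were Twsg1, Ctdsp2 and Tcf12, and the same 3 fell in TS against Con. In TGFb1 against Con, Ctdsp2, Ski and Rgmb fell, and none of the 47 rose in either comparison. Over all tested genes 2.88% were called as lower in TS against Con and 2.08% in TGFb1 against Con. Over 19 alternative settings the edgeR or DESeq2 call was lost in TS against Con in 9 for Tcf12, 6 for Twsg1 and 2 for Ctdsp2, and in TGFb1 against Con in 8 for Ctdsp2. Without Con replicate 1 the adjusted p was 0.315 for Tcf12, 0.0697 for Twsg1 and 0.0662 for Ctdsp2 in TS against Con, and 0.231 for Ctdsp2 in TGFb1 against Con. With the length and GC trend removed it was 0.158 for Tcf12 in TS against Con and 0.203 for Ctdsp2 in TGFb1 against Con. None of the 47 was called for STC-1 (6 against 6), for STC1 against Con, for TS against TGFb1, for TS against STC1 or for the interaction by the edgeR test. At an unadjusted p under 0.05 there were 1, 5, 1, 6 and 5 of the 47 in these comparisons, against 8.33%, 10.6%, 6.5%, 9.17% and 8.29% of all tested genes.

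Few ligand genes were expressed. Of 16 other BMP and GDF ligand genes 8 were in the table and 3 were tested, and none was called. Bmp1, which despite its name encodes a procollagen-cleaving protease, had 15.9 CPM per kb in Con libraries, above Gdf11 at 7.72 and Gdf5 at 1.89, and its log2 fold change with TGF-β1 was -0.060 (edgeR adjusted p = 0.358). For Gdf5 it was -0.048 (SE 0.101, edgeR adjusted p = 0.869).

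Of 11 other receptor and co-receptor genes 9 were tested. None was called with TGF-β1 over the 6 against 6 libraries, where 2 had an unadjusted p under 0.05, against 18% of all tested genes, and 1 was called in TGFb1 against Con. That gene was Rgmb, a BMP co-receptor gene, at 82.9 ± 2.26 CPM in TGFb1 and 90.3 ± 3.58 CPM in Con libraries (SD, n = 3; log2 fold change -0.12, edgeR adjusted p = 0.0477). In TS libraries Rgmb averaged 85.7 ± 3.82 CPM, against 81.6 ± 1.27 CPM in STC1 libraries, and its difference over 6 against 6 was -0.026 (edgeR adjusted p = 0.672). The call of Rgmb was lost in 12 of 19 alternative settings, with an edgeR adjusted p of 0.267 without Con replicate 2, 0.123 without Con replicate 1, and 0.146, 0.157 and 0.0562 without TGFb1 replicates 1, 2 and 3. Neo1, which encodes a receptor for the RGM proteins, differed by -0.081 over 6 against 6 (edgeR adjusted p = 0.0543) and did not pass. The type I receptor gene Bmpr1b, named after its values were seen, had a mean of 0.0833 counts and was not tested.

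Among 12 other SMADs and SMAD regulators, all tested, Ctdsp2 fell with TGF-β1 and none rose. Ctdsp2 encodes a small phosphatase known to act on SMADs, and its level was 392.8, 407.8 and 393.9 CPM in TS, 411.9, 403.6 and 396.5 CPM in TGFb1, 423.1, 407.7 and 422.8 CPM in STC1, and 437.9, 428.4 and 424.1 CPM in Con libraries (log2 fold change over 6 against 6 -0.080, SE 0.0191, edgeR adjusted p = 0.0062). TS and TGFb1 libraries lay below every Con library, and 1 STC1 library lay among them. Groups did not overlap for 21.9% of all tested genes in TS against Con and for 21.3% in TGFb1 against Con. The 6 against 6 call was kept in every alternative setting run. Ski, a repressor of SMAD-driven transcription, fell in TGFb1 to 87.4 ± 2.68 CPM, against 95.7 ± 3.46 CPM in Con libraries (SD, n = 3; -0.13, edgeR adjusted p = 0.0265). Its call was lost without Con replicate 1 (-0.10, edgeR adjusted p = 0.252), without TGFb1 replicate 1 (0.0918), without TGFb1 replicate 3 (0.147), with the length and GC trend removed (-0.093, 0.132) and with DESeq2 (DESeq2 adjusted p = 0.0589). Over 6 against 6 Ski was at -0.075 (edgeR adjusted p = 0.0854).

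Of 19 other secreted or membrane antagonists 15 were in the table and 11 were tested. Fstl1, which encodes a secreted follistatin-like glycoprotein and was named after its values were seen, had 225.9 CPM per kb in Con libraries. It was not called with TGF-β1 over 6 against 6 (log2 fold change -0.043, edgeR adjusted p = 0.153). Noggin's gene Nog, also named after its values were seen, had a mean of 0.167 counts.

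Twsg1, which encodes a BMP-binding protein that can promote or block signalling, was the antagonist that fell. It was 182.6, 186.7 and 184.0 CPM in TS, 187.1, 190.3 and 191.0 CPM in TGFb1, 196.9, 204.6 and 194.6 CPM in STC1, and 196.0, 194.8 and 202.0 CPM in Con libraries. All 6 libraries with TGF-β1 lay below all 6 without, which held for 1.72% of all tested genes, and the log2 fold change was -0.084 (SE 0.0206, edgeR adjusted p = 0.00798). Bambi, the gene of a decoy receptor and itself a known BMP and TGF-β target, was at 0.16 (SE 0.0648, edgeR adjusted p = 0.14) and did not pass.

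Of 19 other genes known as BMP targets 14 were in the table and 11 were tested, with none called in any comparison by the edgeR test. With TGF-β1 over 6 against 6, 3 had an unadjusted p under 0.05, against 18% of all tested genes, and the median log2 fold change was -0.00076. Smad7, an inhibitory SMAD gene induced by both branches in textbook accounts, was at 0.16 (SE 0.0679, edgeR adjusted p = 0.195).

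All 3 E protein genes were tested, and Tcf12 fell. It was 113.2, 108.9 and 114.7 CPM in TS, 111.9, 118.0 and 113.7 CPM in TGFb1, 116.7, 122.4 and 119.8 CPM in STC1, and 125.7, 118.1 and 119.2 CPM in Con libraries (log2 fold change over 6 against 6 -0.086, SE 0.0241, edgeR adjusted p = 0.0243). Libraries with and without TGF-β1 overlapped between 116.7 and 118.0 CPM. Its call was lost without Con replicate 1 (-0.070, edgeR adjusted p = 0.121), without STC1 replicate 2 or 3, TGFb1 replicate 1 or 3 or TS replicate 2 (edgeR adjusted p between 0.0522 and 0.0826), and with the length and GC trend removed (-0.069, edgeR adjusted p = 0.0748). Tcf4 was at -0.042 (edgeR adjusted p = 0.402).

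**Figure D3:**
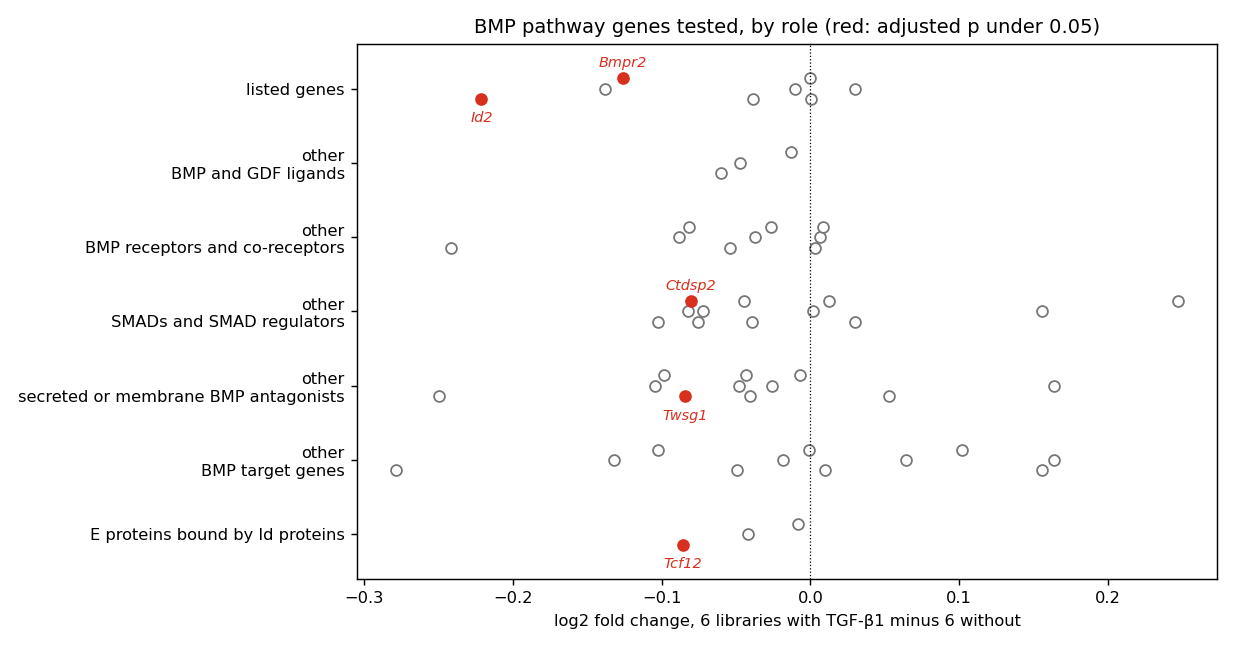
Log2 fold change of 6 libraries with TGF-β1 minus 6 without (x axis) for the tested genes of each role (rows), 1 point a gene. Red points passed an adjusted p of 0.05 by the edgeR test, and all 5 of them, Bmpr2, Id2, Ctdsp2, Twsg1 and Tcf12, lie below 0. Bambi and Smad7 are each drawn in 2 rows.

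The genes whose levels followed Bmpr2 and Id2 most closely over the 12 libraries were named as a description. For Bmpr2, among 6079 abundant genes, these were Acap2 (Pearson r = 0.940), Fam102b (r = 0.935) and Qk (r = 0.924), with longest transcripts of 6362, 5702 and 8547 bases. For Id2, among 6080 genes, they were Prss23 (r = 0.882), Phf21a (r = 0.870) and Entpd5 (r = 0.866). The 12 points share 4 treatments and the library scaling. Of these 6 genes Acap2 (log2 fold change -0.077, edgeR adjusted p = 0.0191) and Prss23 (-0.096, edgeR adjusted p = 0.00629) were called over 6 against 6. Of all tested genes 4.7% were called there. The 6 were picked for likeness to Bmpr2 and Id2, themselves called there, so these calls are not separate support.

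**Figure D4:**
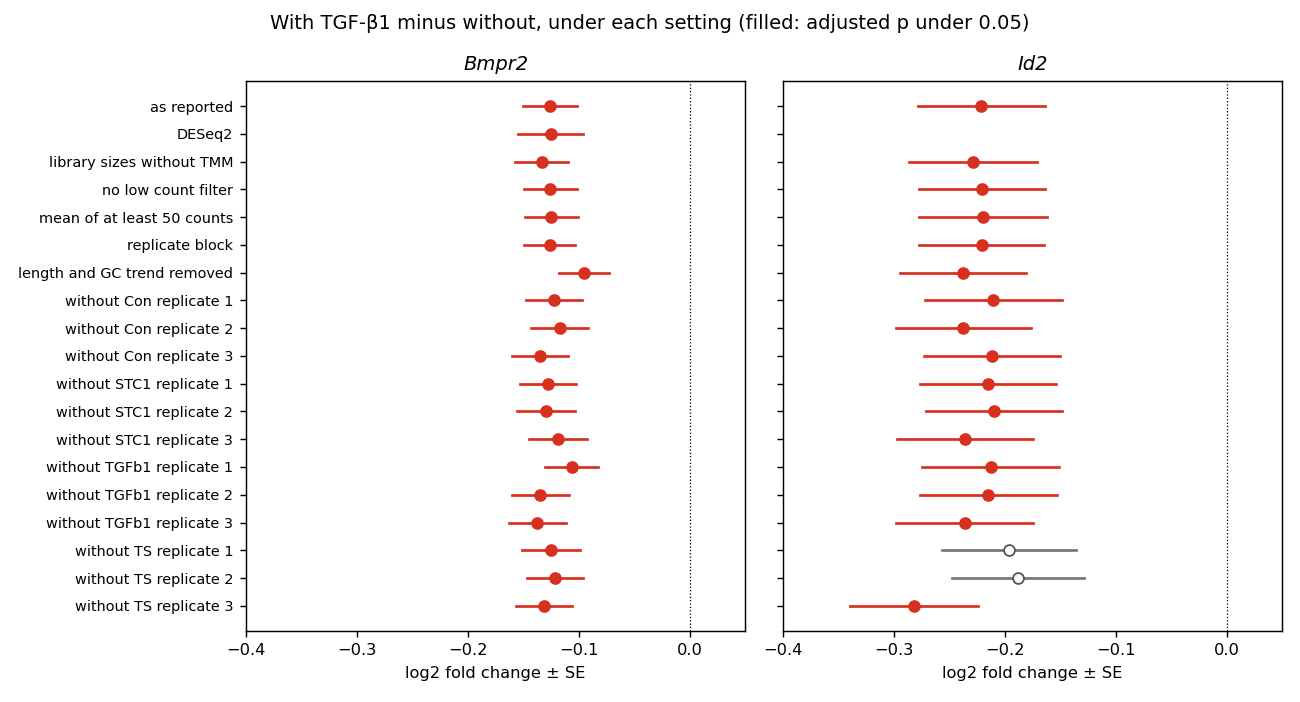
Log2 fold change ± SE (x axis) of Bmpr2 and Id2 for 6 libraries with TGF-β1 minus 6 without, under each setting (rows), with filled points for an adjusted p under 0.05. Bmpr2 is filled in every row. Id2 is open without TS replicate 1 and without TS replicate 2 and has no point for DESeq2, which gave it no adjusted p.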

How the data were processed

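The deposited table holds expected counts per gene, estimated by the authors and not whole in every cell (88.5% to 89.1% of values per library were whole). The build was GRCm39, per the submitters' processing notes. Which aligner and counter were used, and whether strand was used, is not given in the sources used here. Gene IDs were matched to symbols for 16177 of 16300 rows. Expected counts were rounded and tested with edgeR 4.0.16 (R 4.3.3; quasi-likelihood, robust, TMM scaling, filterByExpr, Benjamini-Hochberg over 11763 genes) in 1 model of 12 libraries with 8 residual degrees of freedom, and the procedure was tested on simulated data. CPM use TMM-scaled library sizes, and SDs and intervals cover the spread between these libraries only. p-values measure the spread between these samples, which may be technical. Library totals were 16867600 to 18521800. No 2 libraries of a group agreed within sampling noise. Lengths are of the longest GENCODE vM21 transcript (GRCm38), which is not the build of the counts.

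Genes were named as follows: all listed genes, every called gene of a wider list (with those of smallest unadjusted p for TGF-β1 until 2 were named), and the 3 abundant genes of highest r with a called listed gene. The called fibroblast markers were named as well, after their values were seen. The members and lists were chosen with earlier results of these data known. Alternatives were DESeq2 1.42.0, a fit restricted to the groups compared, no TMM, no filter, a filter at a mean of 50 counts, a replicate block, leaving out each library and, chosen after seeing the data, removal of a length and GC trend. A gene of the wider lists is not reported here by name.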

Additional observations from a re-analysis of the deposited data

How the results depend on the processing

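No estimate of a listed gene changed sign while called. Of the 64 gene estimates, all were on the same side of the threshold with the replicate block, with no filter and with a mean of at least 50 counts, as were the 31 with an adjusted p from DESeq2. With the length and GC trend removed, 7 estimates that were not called changed sign, 1 gained a call and 1 lost it. Without TMM 3 estimates that were not called changed sign. Same-numbered libraries deviated together weakly: r was between -0.0232 and 0.245, above 0 in 15 of 18 pairs and over 0.1 in 6, against -0.212 to 0.145 between other numbers. Con replicate 3, STC1 replicate 2 and TS replicate 2 correlated best with a library of another number, and the other 9 with their own. The labels give no shared batch, so the replicate block is only an alternative. With it, genes called numbered 52 in STC1 against Con, 1 in TS against TGFb1, 32 for STC-1 (6 against 6) and 5 for the interaction, against 6, 0, 10 and 0 without it. In STC1 against Con the count was 51 with DESeq2, 13 without TMM, 57 without a filter, 13 at a mean of 50 counts, 22 with only the compared groups and 0 to 44 with a library left out. In TS against Con (713) it was 423 with DESeq2, 472 with the trend removed and 276 to 722 with a library left out. In TS against TGFb1 it was 1 with DESeq2, 4 without a filter, 2 with only the compared groups, 1 with the trend removed and 0 to 6 with a library left out. In TS against STC1 (35) it was 64 without a filter and 2 to 39 with a library left out, and in TGFb1 against Con (469) 143 to 561. For TGF-β1 (6 against 6, 553) it was 332 to 611 with a library left out. For STC-1 (6 against 6) it was 53 with DESeq2, 6 without TMM, 38 without a filter, 6 with the trend removed and 0 to 28 with a library left out. For the interaction it was 8 without a filter and 0 to 2 with a library left out. Listed genes called in TGFb1 against Con (0) were 1 with the trend removed and 0 to 1 with a library left out, in TS against STC1 (1) 0 and 0 to 1, and for TGF-β1 (2) 1 with DESeq2 and 1 to 2 with a library left out. The causes were not tested. Smad6, at 62.75 counts on average, had the fewest counts of the 8 listed genes tested.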

Other observations

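Ratios within a library do not depend on its scaling, while a summed CPM does. Both were chosen after the values were seen and are given without a test. The ratio of Id2 to Id3 CPM was 0.224 ± 0.0264 in TS, 0.213 ± 0.00707 in TGFb1, 0.264 ± 0.00771 in STC1 and 0.257 ± 0.0108 in Con libraries (SD, n = 3). TS replicate 3, at 0.255, was the only library with TGF-β1 inside the range of those without it. The ratio of Bmpr2 to Bmpr1a was 0.836 ± 0.0368 in TS, 0.868 ± 0.0377 in TGFb1, 0.932 ± 0.0334 in STC1 and 0.913 ± 0.0417 in Con libraries. For this ratio TS replicate 1, at 0.877, and TGFb1 replicate 3, at 0.908, lay inside the range of libraries without TGF-β1 (0.865 to 0.966). The summed CPM of Id1, Id2 and Id3 was 93.7 ± 4.75 in TS, 90.7 ± 3.28 in TGFb1, 94.0 ± 0.122 in STC1 and 92.2 ± 3.28 in Con libraries. TGFb1 libraries (87.1 to 93.5) lay below STC1 libraries (93.9 to 94.2), and the other pairs of groups overlapped. The share of all tested genes without overlap was not computed for TGFb1 against STC1. It ran from 10.9% to 21.9% in the pairs of groups that were compared.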
